A study of Rattus norvegicus with 9 samples.

Results

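The genes described here are 10 genes of vasoactive peptide signalling: the peptides Adm, Edn1 and Nppb, the receptor genes Calcrl, Ramp1, Ramp2, Ramp3, Ednra and Ednrb, and the nitric oxide synthase Nos3. They were chosen by symbol from a list drawn up with earlier results of these arrays known, and all 10 of 10 were on the array, carried by 14 of its 43686 probe sets, among 19102 named genes in all. Skin was profiled from 9 Sprague Dawley rats with 1-colour arrays. The 4 CGN rats were given carrageenan, a seaweed polysaccharide that provokes acute inflammation and pain, at 30 mg/kg body weight, with paw swelling and pressure pain measured after 3 hours and skin taken after 4 hours. The 5 control rats had no carrageenan, and the labels give no vehicle injection and no hour of harvest for them, so carrageenan, injection and handling cannot be told apart. The labels name no genotype, age, sex or skin site, and all rats are of the same outbred stock. The list of 10 keratinocyte markers had a mean between 10.19 and 11.05 on the log2 scale in CGN skin and between 10.52 and 10.996 in control skin. Of its members, Krt14 was bright (19836 in CGN and 20492 in control skin, geometric means) and Ivl, a late differentiation gene, dim (13.4 in CGN and 15.6 in control skin). Krt15 varied most between arrays. It gave 5538 in CGN replicate 1, the CGN array with the highest list mean, and 88.0, 61.9 and 70.6 in CGN replicates 2 to 4. Its values in control skin were 566, 367, 3458, 2013 and 2199.

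Adrenomedullin is a secreted peptide that widens blood vessels and tightens the endothelial barrier. It acts through the receptor Calcrl, whose ligand preference is set by an accessory protein: Ramp2 or Ramp3 make it an adrenomedullin receptor, whereas Ramp1 makes it the receptor for the sensory neuropeptide CGRP. Endothelin-1, the product of Edn1, is a strong vasoconstrictor. It contracts smooth muscle through Ednra, whereas endothelial Ednrb releases nitric oxide and clears the peptide. The natriuretic peptide encoded by Nppb, best known from the heart, signals through the guanylyl cyclase receptor Npr1 and is removed by Npr3. Nos3, the endothelial nitric oxide synthase, feeds the same cyclic GMP pathway through soluble guanylyl cyclase.

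Promoter sequences of 4 of the genes are shown, in the order Adm, Nppb, Ramp3 and Edn1. Adm, Nppb and Ramp3 differed between the groups, and Edn1 did not pass the test. Ramp3 was added to the planned peptide genes for its NF-kB match, not for the size of its difference. Each window runs from 250 bases before to 50 bases after the start site, 5′ to 3′ along the gene, from RefSeq on GRCr8. The windows lie at chr1:174179950-174180249 on the + strand, chr5:163699758-163700057 on the + strand, chr14:85741064-85741363 on the + strand and chr17:22666638-22666937 on the - strand. Capitals mark matches to the core hypoxia response element (ACGTG or GCGTG, on both strands) and, in Ramp3 only, the NF-kB consensus. No match to the AP-1 element TGANTCA was found in these 4 windows.
Adm: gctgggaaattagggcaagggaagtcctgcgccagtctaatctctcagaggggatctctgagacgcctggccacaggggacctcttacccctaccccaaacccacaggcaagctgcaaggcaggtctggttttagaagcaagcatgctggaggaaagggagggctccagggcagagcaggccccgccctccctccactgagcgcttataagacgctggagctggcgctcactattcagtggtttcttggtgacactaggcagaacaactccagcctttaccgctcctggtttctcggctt
Nppb: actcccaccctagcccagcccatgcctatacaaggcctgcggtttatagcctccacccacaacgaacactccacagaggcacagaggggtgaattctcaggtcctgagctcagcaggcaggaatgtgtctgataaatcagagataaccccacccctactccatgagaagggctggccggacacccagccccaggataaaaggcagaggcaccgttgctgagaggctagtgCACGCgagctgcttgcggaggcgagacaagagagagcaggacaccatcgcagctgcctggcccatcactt
Ramp3: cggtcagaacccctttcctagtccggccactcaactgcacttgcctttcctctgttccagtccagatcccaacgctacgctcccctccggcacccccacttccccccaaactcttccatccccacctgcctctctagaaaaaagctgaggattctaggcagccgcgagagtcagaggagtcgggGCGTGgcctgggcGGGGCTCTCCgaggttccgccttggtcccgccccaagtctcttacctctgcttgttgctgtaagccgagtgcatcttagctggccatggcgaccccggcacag
Edn1: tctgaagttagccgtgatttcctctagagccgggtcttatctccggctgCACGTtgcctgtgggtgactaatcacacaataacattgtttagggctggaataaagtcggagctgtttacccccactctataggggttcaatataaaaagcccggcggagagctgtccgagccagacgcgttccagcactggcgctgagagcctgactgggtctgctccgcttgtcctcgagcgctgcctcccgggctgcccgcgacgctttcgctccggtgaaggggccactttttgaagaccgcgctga
RefSeq windows matched 9 of the 10 genes. Among all 33469 windows of that length in the table, 41.6% held the hypoxia element, 7.5% the NF-kB consensus and 7.3% the AP-1 element. The Adm window held none of these. That of Nppb held 1 hypoxia element starting 20 bases before the start site, and that of Edn1 held 1 starting 201 bases before it. In the Ramp3 window, the hypoxia element began 66 bases and the NF-kB match 53 bases before the start site, without overlap. Of the windows not shown, those of Ramp1, Ednra and Ednrb held 1 hypoxia element each and no other match. Those of Calcrl and Nos3 held no match. The windows of Adm, Edn1 and Nppb were planned. That of Ramp3, the only window of these genes with an NF-kB match, was added to those shown. These are letter matches only.

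The comparison of CGN with control skin asks which genes differ in the skin of rats in which carrageenan was used to induce pain. Intensities are on the linear scale deposited by the authors, differences are log2 CGN minus control ± standard error, and a gene passed the test at a limma adjusted p under 0.05 over all 19102 genes. Because the list was drawn up with this comparison known, an adjusted p places a gene within the fit over all genes and is no independent support. Of the 10 genes, 5 were higher (Adm, Nppb, Ednrb, Ramp3 and Nos3), 2 were lower (Ednra and Ramp2) and 3 did not pass (Calcrl, Ramp1 and Edn1). Over all genes, 8.72% were called higher and 13.5% lower. The median difference was 0.79 over the 10 genes and -0.01 over all genes. In whole skin, fewer cells of a type and less RNA per cell cannot be told apart.

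**Figure D1:**
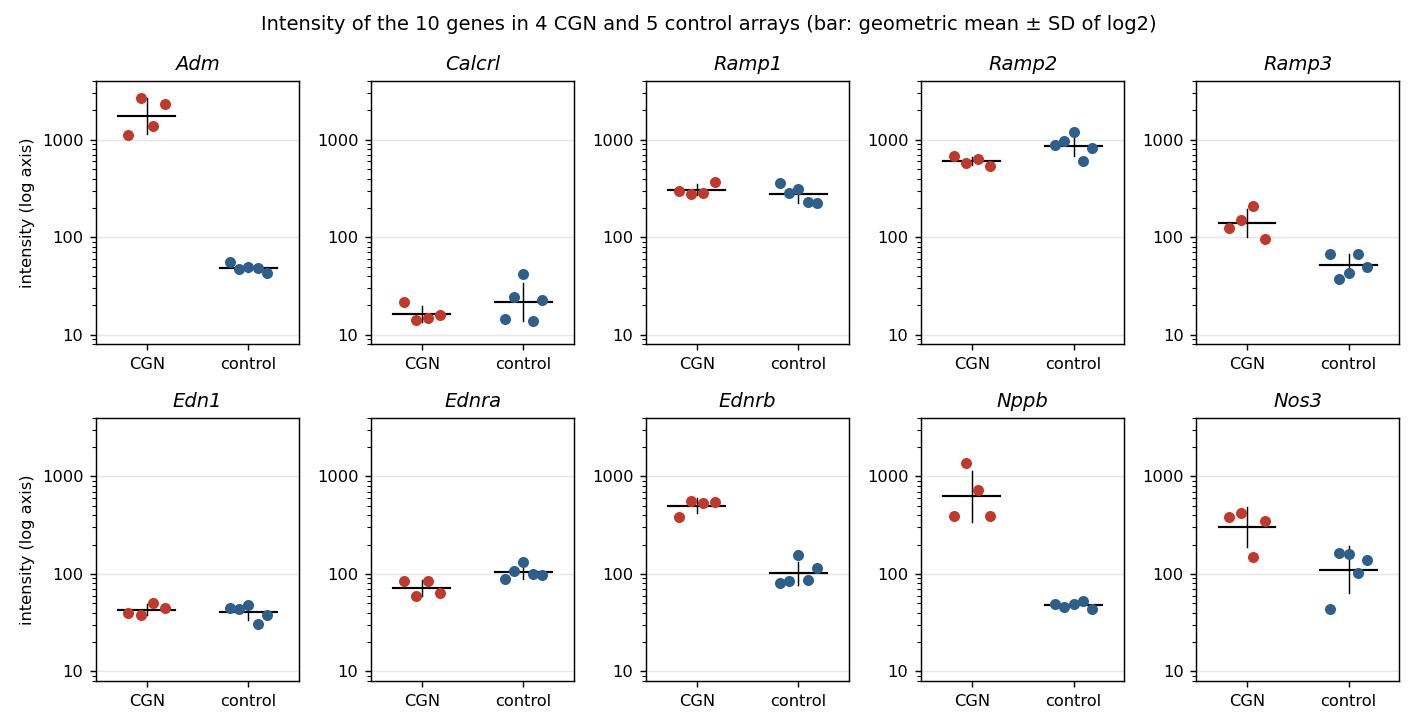
Intensity of each of the 10 genes (log axis) in 4 CGN arrays (left, red) and 5 control arrays (right, blue), with the geometric mean and the SD of the log2 values as bars. Adm, Nppb, Ednrb and Ramp3 lie higher in every CGN array than in any control array, Ednra lies lower, and heights cannot be compared between genes because each probe set has its own brightness.

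The adrenomedullin gene had the largest difference of the 10. Adm gave intensities of 1119.6, 2708, 1372 and 2340.5 in CGN replicates 1 to 4, against 55.6, 47.2, 49.7, 48.9 and 43.1 in control replicates 1 to 5. The groups lay far apart, and the CGN arrays spread more (SD 0.61 on the log2 scale, n = 4) than the controls (SD 0.13, n = 5). Adm was 36.3-fold higher in CGN skin (log2 difference 5.18 ± 0.23, adjusted p = 1.70e-07), which ranked 18 among the rises of all 19102 genes.

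The natriuretic peptide gene was also higher in every CGN array. Nppb gave 395, 1365, 719.8 and 390.3 in CGN replicates 1 to 4, against 49.05, 45.8, 48.7, 52.9 and 43.6 in the controls. The CGN arrays differed among themselves, with replicate 2 the brightest (SD 0.86 on the log2 scale, n = 4), whereas the controls lay close together (SD 0.11, n = 5). The fold was 13.0 (log2 difference 3.70 ± 0.31, adjusted p = 1.78e-05), at rank 58 among the rises. Neither peptide gene has another probe set here.

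The vasoconstrictor gene Edn1 showed no such difference. Its intensities were 40.1, 37.8, 50.7 and 44.9 in CGN skin, against 45.1, 44.1, 48.5, 30.8 and 37.7 in control skin. The groups overlapped almost fully, and the log2 difference was 0.08 ± 0.14 with a 95% interval from -0.24 to 0.40 (adjusted p = 0.761). An increase of the size seen for Adm or Nppb lies far outside that interval, and smaller differences within it were not detectable with these arrays.

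The genes with the closest course over the arrays were found by the root mean square difference of log2 values over 9 arrays, after each gene was centred on its mean. Nearest to Adm were Thbs1, a matrix protein (0.19), Has1, a hyaluronan synthase (0.29), and Fosl1, an AP-1 transcription factor (0.30). Their own log2 differences were 5.10 ± 0.20, 4.74 ± 0.22 and 4.97 ± 0.19. Nearest to Nppb were the nuclear receptor Nr4a3 (0.37), the EGF receptor ligand Epgn (0.42) and the adhesion receptor Pvr (0.42). For Edn1, which varied little, the nearest were Rrp1b (0.07), Spatc1 (0.07) and Or1d2 (0.08), none past the test (adjusted p = 0.755, 0.991 and 0.462). The arrays fall into 2 groups, so a gene near Adm or Nppb by this measure has a group difference of like size.

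The 3 accessory proteins of the adrenomedullin and CGRP receptors gave 3 different results: higher, lower and not past the test. Ramp3 gave 125, 152, 211 and 96.1 in CGN skin, against 67.9, 37.6, 42.9, 67.8 and 49.6 in control skin. Every CGN array lay above every control array, and the fold was 2.71 (log2 difference 1.44 ± 0.24, adjusted p = 0.00184). Ramp2 gave 677, 579, 636 and 539 in CGN skin, against 893, 965, 1188, 599 and 815 in control skin. It was lower on average, but control replicate 4 lay within the CGN range (log2 difference -0.52 ± 0.17, adjusted p = 0.04998, just under the threshold). The Ramp2 call was lost when any of 7 of the 9 arrays was left out (adjusted p up to 0.138). Ramp1, the CGRP partner, gave 301, 278, 285 and 372 in CGN skin, against 357, 282, 315, 228 and 227 in control skin. These groups overlapped throughout (log2 difference 0.15 ± 0.15, 95% interval -0.19 to 0.48, adjusted p = 0.582).

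Calcrl, the receptor that all 3 accessory proteins serve, did not pass on any of its 3 probe sets. The probe set selected on its mean log2 value over the 9 arrays (4.26) stood only just above the next one (4.17), and the suffix of its name (_s_at) means that its probes may pick up more than 1 transcript. It gave 21.8, 14.3, 14.7 and 15.9 in CGN skin, against 14.6, 24.3, 42.0, 13.8 and 23.0 in control skin. Control replicate 3 was the highest and the groups overlapped (log2 difference -0.40 ± 0.29, 95% interval -1.04 to 0.25, adjusted p = 0.404). The probe set named for the RefSeq transcript gave 17.8, 22.3, 19.8 and 18.3 in CGN skin, against 15.4, 18.4, 18.5, 19.4 and 13.8 in control skin, a log2 difference of 0.20 ± 0.12. The dimmest differed by -0.03 ± 0.09. The signs therefore disagree between probe sets. The median probe set of an array lay between 16.7 and 17.8. Without detection calls it is not known whether the Calcrl values stand above background, least of all those of the dimmest probe set, which lay between 6.35 and 7.63 in CGN and between 6.55 and 7.39 in control skin.

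The endothelin receptors moved in opposite directions on their main probe sets. Ednrb gave 385, 559, 535 and 552 in CGN skin, against 80.6, 85.4, 156, 86.2 and 114 in control skin. The groups did not overlap, CGN replicate 1 was the lowest of the treated arrays, and control replicate 3 was the highest of the controls. The fold was 4.97 (log2 difference 2.31 ± 0.20, adjusted p = 1.98e-05). A dimmer Ednrb probe set gave 21.4, 46.4, 46.9 and 23.0 in CGN skin, against 7.59, 7.91, 12.0, 7.81 and 7.83 in control skin. It was also called higher in the limma fit over all 43686 probe sets (log2 difference 1.92 ± 0.25, adjusted p = 4.23e-04), where 5.3% of probe sets were called higher and 7.4% lower. Of the 4 probe sets of these genes that were not the brightest, this was the only one called.

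Ednra gave 85.4, 59.3, 84.5 and 64.3 in CGN skin, against 88.4, 108, 134, 99.5 and 97.1 in control skin. All CGN arrays were below all controls, by a narrow margin between CGN replicate 1 and control replicate 1 (log2 difference -0.53 ± 0.15, adjusted p = 0.0278). The main Ednra probe set is named for another transcript accession than the RefSeq one the table gives for it. The dimmer probe set that carries the RefSeq name gave 12.9, 15.2, 18.6 and 16.4 in CGN skin, against 15.2, 14.3, 12.4, 14.4 and 13.2 in control skin. There the groups overlapped and the sign was opposite (0.17 ± 0.11, adjusted p = 0.415 over all probe sets), so the lower Ednra value rests on 1 probe set. The call was also lost when any of 4 of the 9 arrays was left out (adjusted p up to 0.0871).

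Ednrb is also a gene of melanocytes and glia. The list of melanocyte and Schwann cell markers averaged between 4.64 and 4.85 on the log2 scale in CGN skin and between 4.87 and 5.26 in control skin. Of its 10 genes, 1 was called, the myelin gene Mbp (-0.93 ± 0.27, adjusted p = 0.0303). The other 9 did not pass. Among them, the melanosome gene Pmel had geometric mean intensities of 42.1 in CGN and 49.99 in control skin (-0.25 ± 0.13), and Sox10, a transcription factor of both cell types, of 75.9 in CGN and 74.0 in control skin (0.04 ± 0.11). The pigment enzyme genes Tyrp1, Tyr and Dct differed by 0.05 ± 0.09, 0.05 ± 0.10 and 0.04 ± 0.09. Their geometric mean intensities were 17.1, 7.36 and 7.44 in CGN and 16.5, 7.12 and 7.24 in control skin. The median probe set of an array lay between 16.7 and 17.8. Without detection calls it is not known whether these enzyme genes stand above background, so their small differences cannot show that they were unchanged. The part of these cells in the Ednrb difference was not tested.

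Nos3 was higher in CGN skin, with overlapping groups. Its intensities were 385, 421, 149 and 348 in CGN skin, against 43.4, 165, 159.8, 103 and 140.3 in control skin. CGN replicate 3 lay within the control range and control replicate 1 far below the other controls, so that both groups spread widely (SD 0.69 for CGN, n = 4, and 0.80 for control, n = 5, on the log2 scale). The fold was 2.74 (log2 difference 1.45 ± 0.41, 95% interval 0.54 to 2.37, adjusted p = 0.0277). The call was lost without CGN replicate 1, 2 or 4 or control replicate 4 (adjusted p up to 0.0838).

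Groups that did not overlap were found for 5 of the 10 genes, 4 of them higher in CGN skin and 1 lower. Over all genes, 8.44% had every CGN array above every control array and 10.6% had every CGN array below. These shares are given as background, since the list was drawn up with the comparison known.

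**Figure D2:**
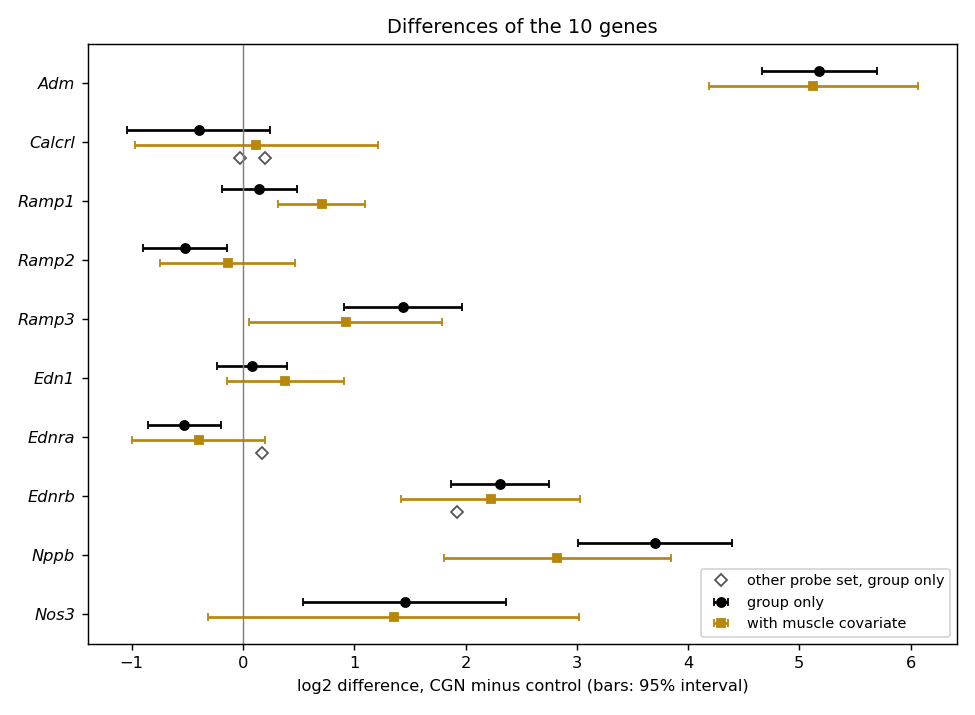
Log2 difference, CGN minus control, of each of the 10 genes with its 95% interval, from limma with group only (black circles) and with the skeletal muscle covariate (gold squares), and the differences of the 4 other probe sets (open diamonds). Adm, Nppb and Ednrb keep intervals well above 0 in both fits. The intervals of Nos3, Ednra and Ramp2 cross 0 only with the covariate, and that of Ramp1 lies above 0 only with it. The open diamond of Ednra lies on the other side of 0 from its main probe set.

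Skeletal muscle transcripts were lower in CGN skin and also varied between arrays of a group. The mean log2 value of 20 muscle markers lay between 5.40 and 7.67 in CGN skin and between 8.34 and 10.92 in control skin, and 17 of the 20 were called lower. None of the markers was called higher, also at an unadjusted p under 0.05. With this mean as a covariate in limma, 2.34% of all genes were called higher and 0.377% lower. In that fit Adm was at 5.13 ± 0.42, Nppb at 2.82 ± 0.46 and Ednrb at 2.23 ± 0.36, all 3 still called (adjusted p = 1.05e-04, 0.00806 and 0.00811). Ramp3 was at 0.92 ± 0.39, Nos3 at 1.36 ± 0.75, Ednra at -0.40 ± 0.27 and Ramp2 at -0.14 ± 0.27, and none of these passed (adjusted p = 0.271, 0.417, 0.518 and 0.870). Ramp1 was at 0.71 ± 0.17 (adjusted p = 0.0686). The covariate correlated with group at r = -0.82 over the 9 arrays, and the median standard error over all genes was 0.208 with it and 0.121 without it; what part of a lost call this accounts for was not tested.

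Endothelial and mural cells carry many of these receptors, and the counts of their markers are set beside 8.72% of all genes called higher and 13.5% called lower. Of 14 blood endothelial markers, 3 were higher, 1 was lower and 10 did not pass. Their mean log2 value lay between 7.58 and 7.85 in CGN skin and between 7.46 and 8.16 in control skin. Kdr, a VEGF receptor, differed by 0.84 ± 0.16 and the tight junction gene Cldn5 by -0.90 ± 0.14. Of 6 lymphatic endothelial markers, only Pdpn was called (1.77 ± 0.27), a gene that keratinocytes and fibroblasts can also express, and the list ranged from 7.65 to 8.02 in CGN skin and from 7.18 to 7.53 in control skin, without overlap. Of 11 markers of smooth muscle and pericytes, 1 was higher (Mcam, 0.99 ± 0.15) and 1 lower (Myh11, the smooth muscle myosin, -0.82 ± 0.21). That list ranged from 6.55 to 7.03 in CGN skin and from 6.49 to 7.20 in control skin. Of 13 neutrophil and macrophage markers, 9 were higher, and the list ranged from 8.38 to 9.18 in CGN skin and from 7.11 to 7.54 in control skin. Of 8 fibroblast markers 1 was higher (Pdgfra, 0.68 ± 0.12), and the list ranged from 11.61 to 11.77 in CGN skin and from 11.19 to 11.59 in control skin, without overlap. Of 10 keratinocyte markers, 1 was higher (Dsg3, 2.25 ± 0.26) and 1 lower (Tp63, -0.60 ± 0.19). Krt15 had the largest difference of that list but did not pass (-2.55 ± 1.25). The part of these lists, or of muscle, in the differences of the 10 genes was not tested. The muscle covariate correlated with group at r = -0.82, so its fit cannot separate muscle content from treatment.

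**Figure D3:**
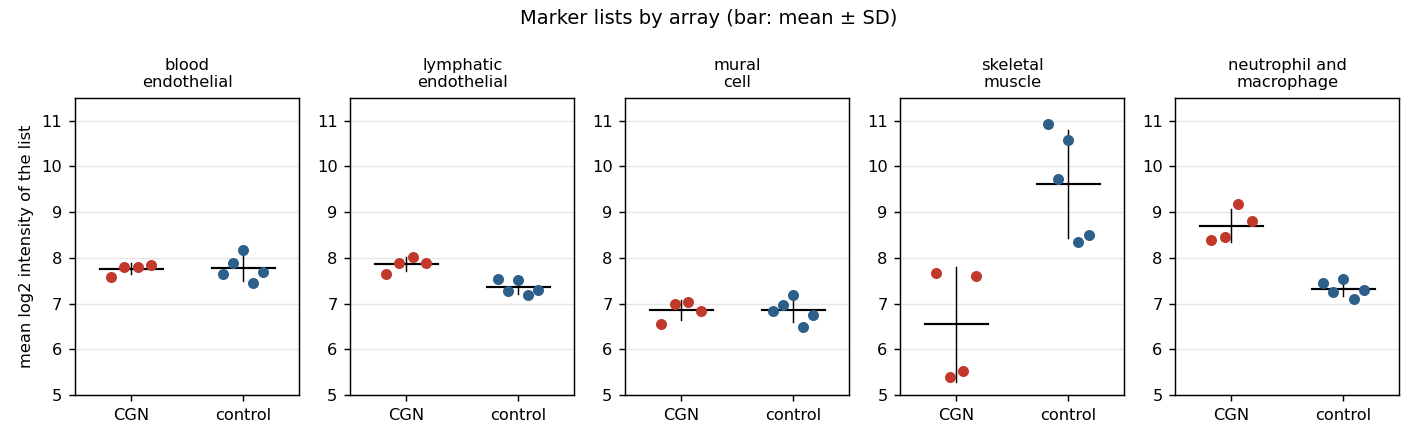
Mean log2 intensity of 5 marker lists in each of the 4 CGN arrays (left, red) and 5 control arrays (right, blue), with the mean and SD over arrays as bars. The blood endothelial and mural lists overlap between the groups, the muscle list is lower in every CGN array, from 5.40 to 7.67 against 8.34 to 10.92, and the neutrophil and macrophage list is higher in every CGN array.

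Calls among the other genes of these pathways were about as frequent as among all genes. Of 59 measured partner genes in 5 lists, 6 were higher, 7 were lower and 46 did not pass, with a median log2 difference of 0.02, beside 8.72% of all genes called higher, 13.5% called lower and a median of -0.01. Without CGN replicate 1, 10 partner genes were called higher and 8 lower. Over all genes, that fit called 1860 higher and 3046 lower, against 1665 and 2578 with all arrays. The added partner calls were Nos2, Calcb, Agt and Ece2 higher and Gucy1b1 lower. Of these, Agt and Ece2 are named after their values were seen. Among 10 partners of adrenomedullin and CGRP, 1 was called. Ackr3, a receptor that can bind and clear adrenomedullin, gave 986, 2018, 1717 and 1798 in CGN skin, against 783, 839, 974, 585 and 706 in control skin. The groups did not overlap, although CGN replicate 1 was close to control replicate 3 (log2 difference 1.04 ± 0.21, adjusted p = 0.00512). Adm2, the sister peptide of adrenomedullin, differed by -0.06 ± 0.08 (adjusted p = 0.693). Its geometric mean intensities, 17.9 in CGN and 18.6 in control skin, lay just above the median probe set of an array (16.7 to 17.8). Whether Adm2 stands above background is not known. The CGRP genes Calca and Calcb were at 0.26 ± 0.12 (adjusted p = 0.145) and 0.34 ± 0.11 (adjusted p = 0.0530). Calcb was called without CGN replicate 1 (adjusted p = 0.0453). Mme, the peptide-degrading neprilysin, was at -0.25 ± 0.16 (adjusted p = 0.327).

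Of 7 endothelin partners, only Edn2, another endothelin peptide, was called. It gave 31.2, 30.0, 37.8 and 42.0 in CGN skin, against 19.8, 19.4, 18.1, 25.7 and 25.1 in control skin, without overlap. The log2 difference was 0.71 ± 0.14 (adjusted p = 0.00512). Edn3 was at 0.01 ± 0.15 (adjusted p = 0.986) and Ece1, an enzyme that cuts the endothelin precursor, at -0.02 ± 0.12 (adjusted p = 0.934). Of the 3 endothelin peptides, Edn2 passed the test and Edn1 and Edn3 did not, and the differences between them were not tested. Edn3 was dim, with geometric mean intensities of 10.8 in CGN and 10.8 in control skin. The median probe set of an array lay between 16.7 and 17.8. Without detection calls it is not known whether Edn3 stands above background, so its small difference cannot show that it was unchanged.

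Of 8 natriuretic peptide partners, only the clearance receptor Npr3 was called. It gave 86.6, 55.0, 58.4 and 55.9 in CGN skin, against 105, 129, 131, 91.4 and 124 in control skin. The groups did not overlap, with CGN replicate 1 just below control replicate 4 (log2 difference -0.87 ± 0.16, adjusted p = 0.00295). The signalling receptors Npr1 (-0.17 ± 0.14, adjusted p = 0.473) and Npr2 (-0.24 ± 0.18, adjusted p = 0.400) did not pass. Nor did the sister peptides Nppa (-0.01 ± 0.15, adjusted p = 0.976) and Nppc (-0.04 ± 0.10, adjusted p = 0.853).

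Of 16 genes of nitric oxide and cyclic GMP, 3 were higher and 3 lower. Gch1, the rate-limiting enzyme for the synthase cofactor tetrahydrobiopterin, gave 567, 1134, 987 and 865 in CGN skin, against 110.1, 109, 95.04, 105 and 113 in control skin. The groups lay far apart (log2 difference 3.02 ± 0.17, adjusted p = 9.06e-07). Gucy1a1, a subunit of the nitric oxide receptor, gave 121, 40.7, 35.7 and 49.7 in CGN skin, against 169, 248, 295, 191 and 244 in control skin. All CGN arrays were below the controls, CGN replicate 1 least so (-2.05 ± 0.32, adjusted p = 0.00117). Its partner subunit Gucy1b1 was at -0.74 ± 0.24 (adjusted p = 0.0517) and was called without CGN replicate 1 (-0.99 ± 0.19, adjusted p = 0.00370). Nosip, a protein that binds nitric oxide synthases, was lower (-0.48 ± 0.08, adjusted p = 0.00252). The other calls, also named after their values were seen, were the arginases Arg1 (1.83 ± 0.52) and Arg2 (0.84 ± 0.18) and the gene Ddah2 (-0.41 ± 0.11). The neuronal synthase Nos1 (-0.01 ± 0.10, adjusted p = 0.973) and the inducible Nos2 (0.25 ± 0.10, adjusted p = 0.116) did not pass, and Nos2 was called without CGN replicate 1 (0.34 ± 0.09, adjusted p = 0.0228).

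Among 18 other vasoactive peptide and receptor genes, 1 was higher and 3 were lower. The apelin receptor Aplnr gave 322, 163, 289 and 150.04 in CGN skin, against 704, 953, 820.4, 649 and 851 in control skin, without overlap (-1.85 ± 0.23, adjusted p = 2.91e-04). The angiotensin receptor Agtr1a was lower (-0.71 ± 0.10, adjusted p = 7.98e-04) and the vasopressin receptor Avpr1a higher (1.02 ± 0.18, adjusted p = 0.00273). With the muscle covariate, Gch1 (2.57 ± 0.26, adjusted p = 4.63e-04) and Avpr1a (1.49 ± 0.28, adjusted p = 0.0192) were the partner genes still called. Aplnr (-1.78 ± 0.41, adjusted p = 0.0543) and Agtr1a (-0.69 ± 0.19, adjusted p = 0.0989) differed by nearly as much there but did not pass. Gucy1a1 (-1.37 ± 0.51, adjusted p = 0.219), Npr3 (-0.58 ± 0.27, adjusted p = 0.321) and Ackr3 (1.02 ± 0.38, adjusted p = 0.219) did not pass either.

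**Figure D4:**
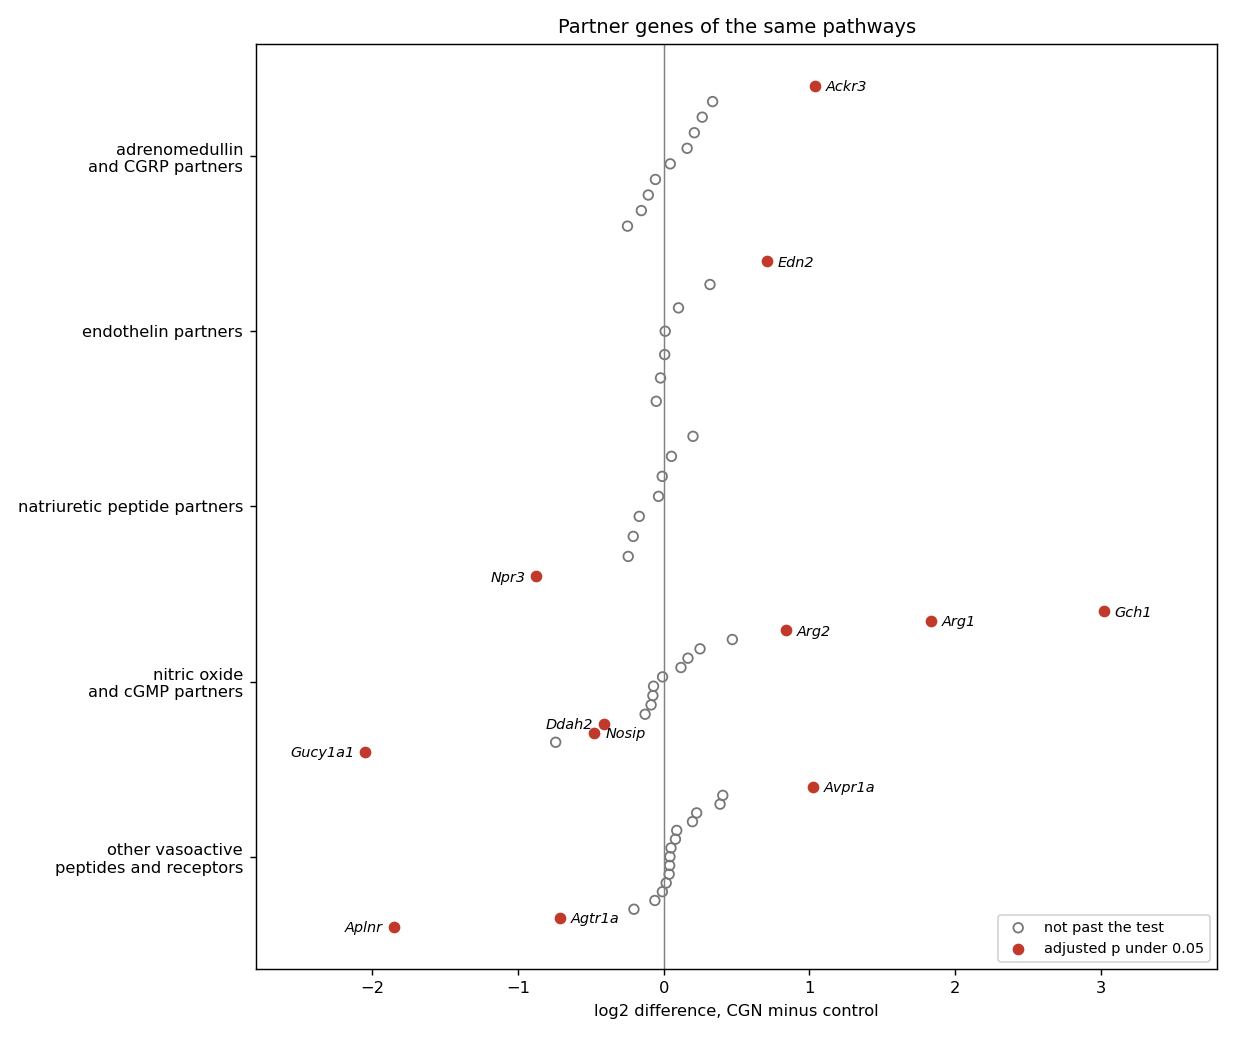
Log2 difference, CGN minus control, of partner genes in 5 lists, with genes at an adjusted p under 0.05 as filled red points with their names and the others as open circles; genes are ordered by their difference within a list. Gch1 at 3.02 and Gucy1a1 at -2.05 stand at the ends, and most of the points are open circles near 0.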

How the data were processed

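RNA from skin of 4 CGN and 5 control rats was hybridised to 1-colour arrays. The deposited values are intensities on a linear scale, which the submitters' processing notes credit to RMA, a method that removes background, equalises the arrays and summarises each probe set, as the authors deposited them. No version, genome build or array date is given in the sources used here. The 2 deposited tables share 43685 probe sets with identical values. One CGN column is numbered 5 where the labels end at 4, and took its replicate number from the labelled column with identical values. Names came from the table's symbols, updated through RefSeq (GRCr8, names and promoters only), and 16178 probe sets stayed unnamed. Each gene was represented by its probe set of highest mean log2 over 9 arrays.

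The deposited intensities were taken to log2, and CGN was set against control in limma 3.58.1 under R 4.3.3 (linear model on group alone, moderated by eBayes, 2-sided). Benjamini-Hochberg adjustment ran over 19102 genes at a threshold of 0.05. The fit was tested on simulated data. Leave-one-out fits and 11 other settings were run. Named partner genes are, per list, up to 3 of those past the test with the smallest adjusted p, and 16 direct partners fixed by name. The members and lists were chosen with earlier results of these data known. Having 4 and 5 arrays a group sets the precision. The labels describe 4 treated and 5 control rats, taken here as 1 rat per array. The counts of partner genes include 1 gene called lower that is not reported here by name or value and is not plotted.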

Additional observations from a re-analysis of the deposited data

Results flagged for a closer look

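The Ednrb intensity of CGN replicate 1, 385.35, stood apart from the other 3 CGN arrays, the nearest of which was at 535. On the log2 scale, the gap was 0.882 of the range of the 4 arrays, above the 95% limit of Dixon's test for a group of 4. Chance gives about 1 such case in 20 groups, and 20 sets of arrays were examined here. On the dimmer Ednrb probe set, CGN replicates 1 and 4 were at 21.4 and 23.0 and replicates 2 and 3 at 46.4 and 46.9. Without CGN replicate 1 Ednrb was still called.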

How the results depend on the processing

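Of 200 values of the 10 genes under 20 other settings, 171 kept direction and side of the threshold, 27 kept direction but lost the call and 2 changed sign: Calcrl with the muscle covariate (0.12) and Edn1 without control replicate 4 (-0.018, range when 1 array is left out -0.018 to 0.145), neither past the test. The 20 settings are not all distinct checks. The second deposited table holds identical values for these genes, so its results were bound to be the same. The replicate block gave the same log2 differences as leaving out control replicate 5, with other standard errors. Adm, Nppb and Ednrb were called in all 20, with log2 differences from 4.78 to 5.40, 2.82 to 3.93 and 2.12 to 2.47, and Ramp3 in 19. Nos3 was called in 14, Ednra in 13 and Ramp2 in 7. Against 5 higher members, the muscle covariate gave 3. Against 2 lower ones, median centring, log2 of intensity plus 16 and testing all probe sets each gave 1, and the mean of probe sets, the replicate block and the muscle covariate each gave 0 in limma (1, 2 and 0 at an unadjusted p under 0.05). Leaving out 1 array gave 4 to 5 higher and 0 to 2 lower members, 5 to 10 higher and 6 to 8 lower partner genes, and 1286 to 1860 higher and 1740.0 to 3046 lower genes overall. Against 1665 higher and 2578 lower genes, the muscle covariate gave 447 and 72, and the replicate block 1433 lower. For partner genes the covariate gave 2 higher and 0 lower in limma (5 lower at an unadjusted p under 0.05). The causes of these changes were not tested. Deviations of arrays with the same label number had correlations from -0.28 to 0.04. This cannot show whether the rats were paired, and the CGN column numbered 5 was compared only as replicate 4. Without detection calls, signal over background is unknown for dim probe sets, among them those of Calcrl, Edn3 and Nppc.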
